A study of Mus musculus with 6 samples.

Results

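The genes described here encode writers, erasers and readers of histone lysine methylation and subunits of the Polycomb complexes. They are the rows of a count matrix of regulatory T (Treg) cells whose symbols begin with the family names Kdm, Kmt, Setd, Setdb, Ehmt, Suv39, Pcgf, Cbx or Phf followed by a number or letter of the family, together with Ash1l, Nsd1, Ezh1, Ezh2, Eed, Suz12 and Jarid2. The rule takes 80 of the 24421 genes in the matrix, and 78 of them had enough counts to be tested. Some relatives stand in the matrix under older symbols outside the rule, such as Whsc1 and Suv420h2, and are counted below with the partner genes.

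CD4+YFP+ Treg cells were sorted from spleens of female C57BL/6 mice aged 8 to 11 weeks, 3 of genotype Foxp3Cre (WT) and 3 of genotype Foxp3Cre miR-142fl/fl (KO). Both groups carry a Cre-YFP fusion under the endogenous Foxp3 promoter, so Cre is made in cells that express Foxp3, and the KO cells lose the floxed miR-142 gene there while other cell types keep it. The study reports that mice of the KO genotype develop a fatal autoimmune disease. It cautions that their inflammation could itself alter gene expression in Treg cells, and this was not tested here. Each mouse gave 1 RNA-seq library. In the order of their replicate numbers, the WT libraries held 15493795, 24042994 and 17779518 counts and the KO libraries 18601425, 13883069 and 14822989. Levels are given in CPM, counts scaled to the size of the library, always in the order of the replicates. The floor of 3 counts lay between 0.123 and 0.227 CPM, which covers counting error only.

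Methyl groups on histone lysines mark chromatin states. Methylation of H3K4 accompanies active promoters and enhancers, methylation of H3K36 marks transcribed gene bodies, and methylation of H3K9 and H3K27 marks silent chromatin. Polycomb repressive complex 2 (PRC2), with the methyltransferase Ezh1 or Ezh2, methylates H3K27, and Polycomb repressive complex 1 (PRC1), built on a Pcgf protein and a Ring1 protein, ubiquitylates H2A. Its Cbx subunits bind methylated H3K27. In Treg cells Ezh2 is known to help maintain the Foxp3-dependent program after activation.

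The deleted gene encodes a pair of mature miRNAs, shown because their seeds define the matches looked for in the members. Capitals mark the seed, bases 2 to 8. Both sequences are from RefSeq on GRCm38.p6, and lie on the + strand at chr11:87756903-87756925 for the 3p strand and chr11:87756867-87756887 for the 5p strand.
miR-142a-3p: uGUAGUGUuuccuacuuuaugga
miR-142a-5p: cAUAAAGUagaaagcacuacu

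The Mir142 row itself held 0 counts in all 6 libraries. Mir142b, annotated on the opposite strand across the same locus, had 147, 101 and 105 counts in WT and 7, 5 and 5 counts in KO libraries. Counting ignored strand, so reads from either strand of this locus cannot be told apart. All 3 KO libraries lay far below the WT libraries, in the direction of the labels (log2 fold change -4.07, SE 0.39, FDR = 0.00132 in edgeR's quasi-likelihood test).

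All 8 Treg markers were tested, and their summed level was 5210, 5849 and 5863 CPM in WT and 7047, 7875 and 8022 CPM in KO libraries. Foxp3 had 536, 595 and 566 CPM in WT and 642, 749 and 677 CPM in KO libraries, and Il2ra, the most abundant of the 8 in each KO library, 799, 744 and 726 CPM in WT and 2258, 2404 and 3073 CPM in KO libraries (log2 fold change 1.77, FDR = 0.000880). In the WT libraries Cd4, with 1043, 1015 and 1005 CPM, and Ikzf2 were above Il2ra. Cd4, Cd3e and Cd3d had log2 fold changes of -0.22, -0.20 and -0.18 and were not called, and for Cd4 and Cd3e every KO library was below every WT library. KO replicate 1 stood apart through markers of other cell types. The 13 neutrophil genes summed to 1.54, 0.738 and 0.277 CPM in WT and to 981, 8.40 and 48.7 CPM in KO libraries. S100a9, with 247 CPM in KO replicate 1, had 0 and 1.23 CPM in KO replicates 2 and 3, where Mpo led with 6.21 and 32.2 CPM. The 12 monocyte and macrophage genes summed to 7.70, 8.69 and 11.3 CPM in WT and to 2839, 77.6 and 19.1 CPM in KO libraries. Csf1r led in KO replicate 1 with 640 CPM, and Vcam1 in KO replicates 2 and 3 with 35.1 and 11.2 CPM. All 12 of them were highest in KO replicate 1. The 8 B cell genes found, of 10 listed, summed to 41.1, 32.3 and 30.1 CPM in WT and to 290, 8.86 and 13.1 CPM in KO libraries, led by Cd22 in the WT libraries and KO replicate 1. The 7 CD8 and NK cell genes summed to 24.4, 20.3 and 22.8 CPM in WT and to 88.4, 55.9 and 44.8 CPM in KO libraries. Cd8b1 led in the WT libraries and was not called (log2 fold change 0.12), Eomes had 6.34, 4.35 and 6.69 CPM in WT and 39.1, 42.0 and 29.8 CPM in KO libraries, and Klrb1c was lower (-1.97, FDR = 0.0308). The 9 erythroid genes summed to between 0.885 and 1.11 CPM in WT and to 13.4, 2.95 and 2.81 CPM in KO libraries, with the 6 globin genes at 0 throughout. The 15 proliferation genes, led by Mki67, summed to 457, 491 and 440 CPM in WT and to 923, 406 and 456 CPM in KO libraries. Of these 15, 13 were highest in KO replicate 1. Of the 15, 0 were called by edgeR's quasi-likelihood test, 4 had an unadjusted p under 0.05 and 3 were called by DESeq2. Values without KO replicate 1 are given below for the called members and for some of the others, and the part of these transcripts in the other differences was not tested.

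Few of the histone methylation and Polycomb genes differed between KO and WT Treg cells. PRC1 genes Pcgf3, Pcgf5 and Cbx7 were higher in KO cells, and PRC2 genes Phf1 and Jarid2 and the H3K4 methyltransferase gene Kmt2d were lower, each by less than 2-fold. Differences were called at a false discovery rate (FDR, the Benjamini-Hochberg adjusted p of edgeR's quasi-likelihood F test over 11658 tested genes) under 0.05. Of the 78 tested members, 3 were higher (3.85%) and 3 lower (3.85%), against 11.6% higher and 7.27% lower among all tested genes, or 7.69% against 18.8% in either direction. The contrast for lower calls depended on the fit. DESeq2 called 10.3% of members lower against 10.3% of all tested genes, and the fit without KO replicate 2 called 11.5% against 8.35%. The shares called higher in these fits were 6.41% against 14.3% and 2.56% against 13%. In these bulk libraries, fewer cells of a type and less RNA per cell cannot be told apart. With 3 mice against 3, an exact two-sided permutation test of a single gene cannot give a p below 0.1, so the calls come from the model over the whole table.

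**Figure D1:**
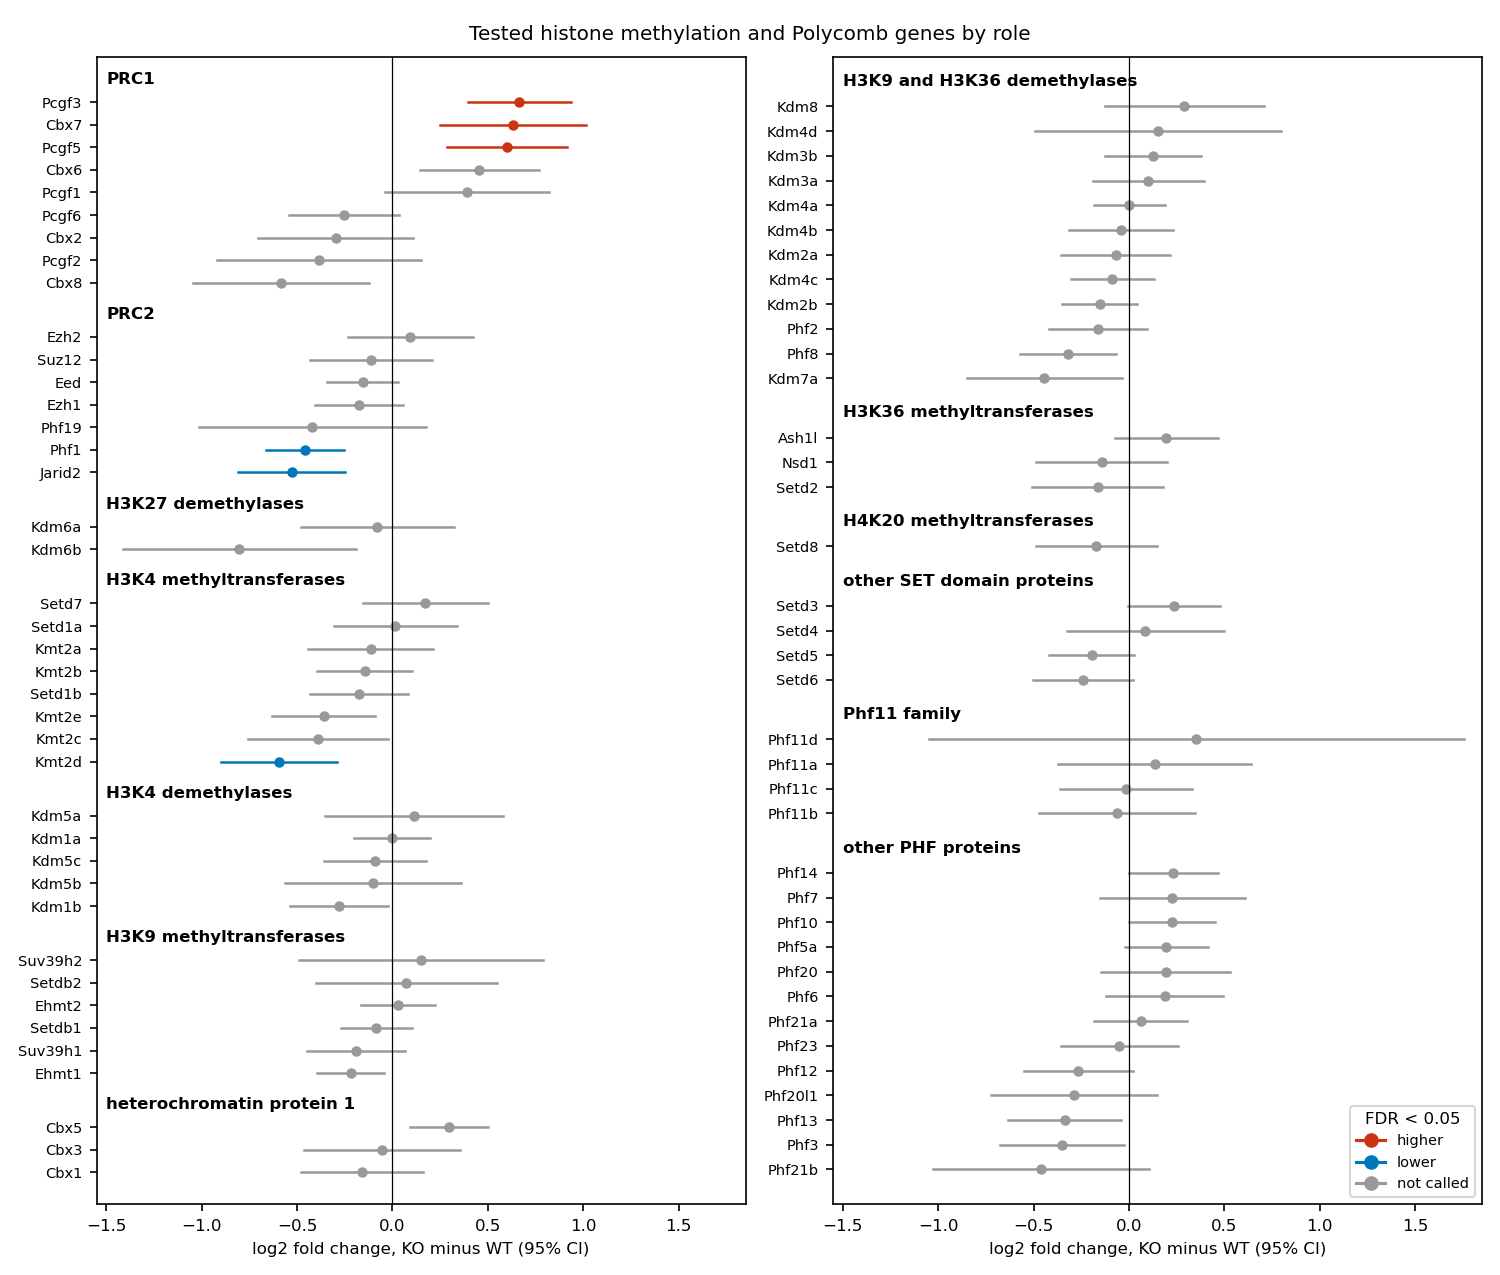
Log2 fold change (KO minus WT, horizontal axis) with its 95% confidence interval for 77 of the 78 tested members, grouped by role; red and blue mark members with FDR under 0.05 that were higher or lower in KO, grey those not called. The 3 red points are in PRC1, and the 3 blue points are Phf1, Jarid2 and Kmt2d.

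Fold changes of the members ran from -0.80 for Kdm6b to 0.66 for Pcgf3 on the log2 scale. Their median absolute log2 fold change was 0.19, against 0.26 for all tested genes, and the 90th percentile was 0.46 against 0.98. The members had a median SE of 0.13 against 0.15 for all tested genes, and a median level of 105 against 33.5 CPM. The 95% confidence interval lay within a 2-fold change in either direction for 72 of 78 members (92.3%), against 73.8% of all tested genes. The median log2 fold change of the members was -0.09, against 0.02 for all tested genes, and 48 of 78 (61.5%) were below 0, against 48.2%. The KO libraries were all above the WT libraries for 10 members and all below for 15, while this held for 22.2% and 18.8% of all tested genes. An unadjusted p under 0.05 was found for 19 members (24.4%), 6 higher and 13 lower, against 34.8% of all tested genes. KO replicate 1 was the lowest of the 6 libraries for 35 of the 78 members. Without it the median was -0.05, against 0.0052 for all tested genes, and 45 members were below 0. KO replicate 2 was the highest for 28 members, and without it the median was -0.15, against 0.0031 for all tested genes. The lowest and highest library was not counted over all tested genes. With scaling by library size alone the median of the members was -0.16, against -0.06 for all tested genes.

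**Figure D2:**
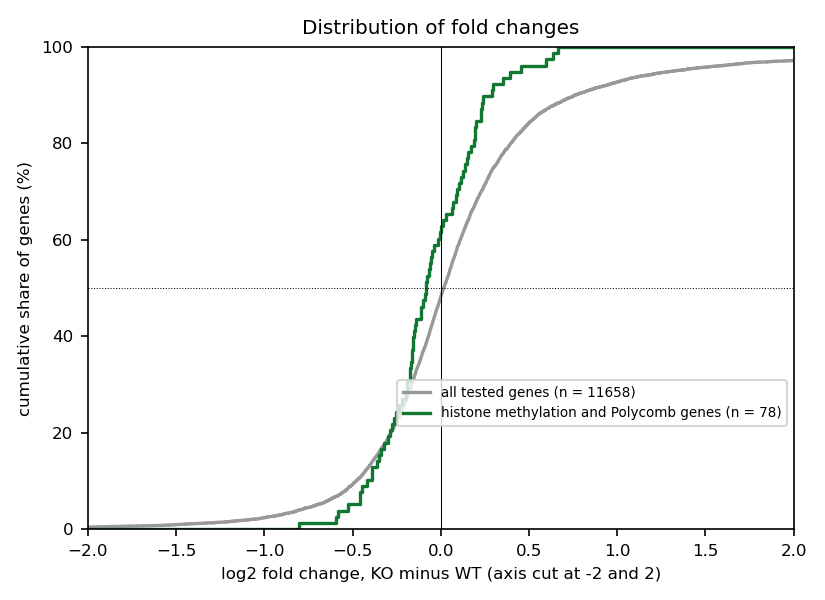
Cumulative share of genes (vertical axis, %) by log2 fold change KO minus WT (horizontal axis, shown from -2 to 2) for the 78 tested members in green and all 11658 tested genes in grey. The green curve is steeper, with a median of -0.09 against 0.02, and its highest value is 0.66.

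Of the 10 PRC1 members, 3 were higher, 0 lower and 7 not called. Pcgf3 and Pcgf5 are the Ring-finger subunits of the closely related variant complexes PRC1.3 and PRC1.5, which lack Cbx proteins and ubiquitylate H2A without prior H3K27 methylation. Pcgf3 had 34.6, 34.9 and 31.3 CPM in WT and 49.8, 49.1 and 60.6 CPM in KO libraries. Each KO library was above all WT libraries, a 1.58-fold difference (log2 fold change 0.66, SE 0.12, FDR = 0.00999). It was 0.71 without KO replicate 1, and of the 6 fits that left out a library the call was lost in that without WT replicate 3. Pcgf5 had 26.0, 25.5 and 31.9 CPM in WT and 36.8, 44.8 and 44.7 CPM in KO libraries, again with no overlap (log2 fold change 0.60, SE 0.13, FDR = 0.0232). Without KO replicate 1 it was 0.69, and the call was lost without WT replicate 1, WT replicate 2 or KO replicate 3.

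Cbx7, a chromodomain subunit that brings canonical PRC1 to methylated H3K27, had 360, 280 and 288 CPM in WT and 391, 569 and 480 CPM in KO libraries. The groups did not overlap, but the lowest KO library was close to the highest WT library. The log2 fold change was 0.63 (SE 0.16, FDR = 0.0362), and 0.76 without KO replicate 1. Among the members this call was lost in the most alternatives. It was lost without WT replicate 2 (0.57), WT replicate 3 (0.58), KO replicate 2 (0.49) or KO replicate 3 (0.63). Scaling by library size alone (0.55), no filter on low counts (0.61) and a block for the replicate number (0.63) also lost it. The last exon of Cbx7 overlaps that of Apobec3 on the opposite strand, and Apobec3 was itself higher, with 332, 344 and 289 CPM in WT and 459, 427 and 513 CPM in KO libraries (log2 fold change 0.54, SE 0.11, FDR = 0.0170). Since reads were counted without strand, those from the shared bases cannot be told apart.

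The remaining PRC1 members moved in both directions without passing the threshold. Cbx6, another chromodomain subunit, had 155, 144 and 117 CPM in WT and 169, 191 and 211 CPM in KO libraries, with no overlap (log2 fold change 0.46, FDR = 0.0528), and was called without KO replicate 1 (0.54, FDR = 0.0259) and by DESeq2 (FDR = 0.0146). Pcgf1, the subunit of the Bcor-containing PRC1.1, had a log2 change of 0.39 (95% CI -0.04 to 0.82). Cbx8 had 13.5, 11.4 and 9.79 CPM in WT and 6.94, 7.12 and 9.10 CPM in KO libraries (log2 fold change -0.58, FDR = 0.0788, and 0.0471 by DESeq2). Cbx2, Pcgf2 and Pcgf6 lay between -0.39 and -0.25, and between -0.49 and -0.17 without KO replicate 1. Cbx6 and Cbx8 were named here after their values were seen.

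**Figure D3:**
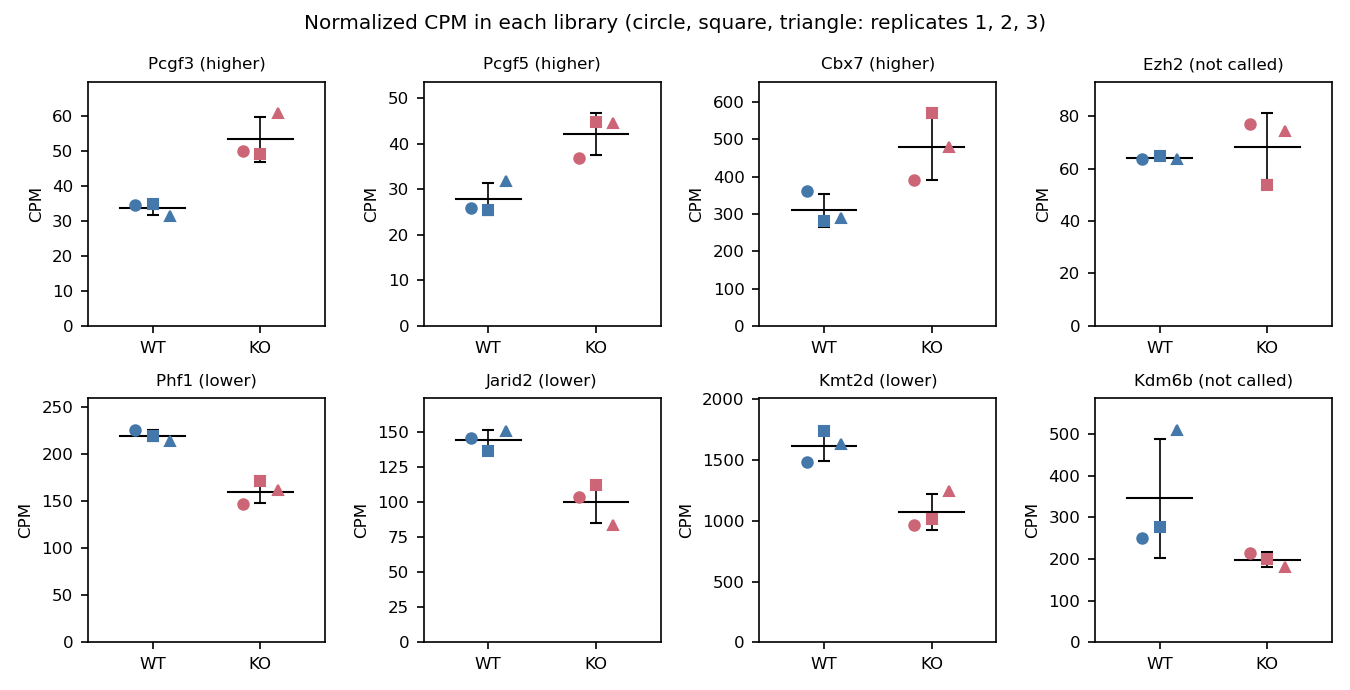
Normalized CPM (vertical axes, from 0) of the 6 called members and of Ezh2 and Kdm6b in each WT (blue) and KO (red) library; circle, square and triangle are replicates 1, 2 and 3, black lines the mean and error bars the SD (n = 3). The groups are separate in the 6 called genes and in Kdm6b, whose WT replicate 3 reached 510 CPM, and overlap for Ezh2.

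Among the core subunits of PRC2 no difference was called, while the accessory subunits Phf1 and Jarid2 were lower. Of the 7 PRC2 members, 0 were higher and 2 lower, and 6 of 7 had a log2 fold change below 0. Phf1, a Polycomb-like protein that ties PRC2 to chromatin through a Tudor domain binding H3K36 methylation, had 226, 220 and 214 CPM in WT and 147, 171 and 162 CPM in KO libraries. All KO libraries were below all WT libraries (log2 fold change -0.46, SE 0.09, FDR = 0.0137). The value without KO replicate 1, the lowest of the 6, was -0.40, and the call was lost without WT replicate 2 or WT replicate 3. Cuta, whose exons overlap Phf1 on the opposite strand, had 30.9, 23.1 and 25.6 CPM in WT and 33.9, 28.5 and 34.6 CPM in KO libraries (log2 fold change 0.29, FDR = 0.202). Jarid2, a catalytically inactive Jumonji protein that recruits and stimulates PRC2, had 146, 136 and 151 CPM in WT and 103, 112 and 83.8 CPM in KO libraries. These groups did not overlap either (log2 fold change -0.53, SE 0.12, FDR = 0.0241), with -0.56 without KO replicate 1, and the call was lost without any one of the WT libraries.

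Ezh2, the methyltransferase of PRC2 in dividing cells, had 63.6, 64.9 and 63.6 CPM in WT and 76.8, 53.7 and 74.5 CPM in KO libraries. The WT libraries were nearly equal, and the KO libraries lay on both sides of them. The log2 fold change was 0.09 (95% CI -0.23 to 0.42, FDR = 0.675), 0.0022 without KO replicate 1 and 0.24 without KO replicate 2 (FDR = 0.0602). Its paralogue Ezh1, which prevails in resting cells, had -0.17 (95% CI -0.40 to 0.06), and -0.09 without KO replicate 1, Eed, the reader of methylated H3K27, -0.16 (95% CI -0.34 to 0.03), and the scaffold Suz12 -0.11 (95% CI -0.43 to 0.21), which ranged from -0.23 to -0.03 when single libraries were left out. Per kb of exon, Suz12 had 35.6 CPM in WT, Eed 20.2, Ezh1 17.3 and Ezh2 9.59. Phf19, the other Polycomb-like protein of the list, was low, with a mean of 6.17 ± 1.14 CPM in the WT and 4.59 ± 1.14 CPM in the KO libraries (SD, n = 3), and its log2 fold change of -0.42 (FDR = 0.284) was -0.64 without KO replicate 1.

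The members grouped here as H3K27 demethylases, Kdm6a and Kdm6b, were not called by edgeR (0 of 2, 1 with an unadjusted p under 0.05, 1 called by DESeq2). Kdm6b, an inducible Jumonji demethylase, had 251, 277 and 510 CPM in WT and 214, 201 and 180 CPM in KO libraries. The groups did not overlap, and WT replicate 3 was far above the other WT libraries. The log2 fold change of -0.80 (SE 0.26, FDR = 0.0715) was the lowest of any member, and became -0.41 without WT replicate 3 and -0.86 without KO replicate 1. It passed the threshold with DESeq2 (FDR = 0.00708) and with scaling by library size alone (FDR = 0.0486). Kdm6a, its X-linked relative, had -0.08 (95% CI -0.48 to 0.32), 0.05 without KO replicate 1 and -0.28 without KO replicate 2.

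Among the 8 H3K4 methyltransferases 1 was lower and 0 higher. Kmt2d, the enhancer monomethyltransferase also known as MLL4, had the highest level of the members per kb of exon, 81.2 CPM in WT. It had 1485, 1741 and 1631 CPM in WT and 963, 1013 and 1243 CPM in KO libraries. Every KO library was below every WT library (log2 fold change -0.59, SE 0.13, FDR = 0.0212), with -0.52 without KO replicate 1, and the call was lost without WT replicate 2 or WT replicate 3. Its paralogue Kmt2c had a log2 change of -0.39 (95% CI -0.76 to -0.02, FDR = 0.124), and -0.26 without KO replicate 1, and Kmt2e, a SET protein with a PHD finger that reads H3K4 methylation, -0.36 (FDR = 0.0681). Kmt2e, called lower by DESeq2 (FDR = 0.0145), with scaling by library size alone and without KO replicate 2 (FDR = 0.0343), was named after its values were seen. Its exons overlap those of Srpk2 on the opposite strand, which was itself lower (-0.45, FDR = 0.0212). Kmt2a, which has 77.6 CPM per kb in WT and is known for the upkeep of Hox gene expression, had 1171, 1333 and 1378 CPM in WT and 1045, 1125 and 1416 CPM in KO libraries. These overlapped (log2 fold change -0.11, 95% CI -0.44 to 0.21), with -0.03 without KO replicate 1 and -0.26 without KO replicate 3. Kmt2b, Setd1a, Setd1b and Setd7 lay between -0.18 and 0.17, and between -0.13 and 0.27 without KO replicate 1.

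The opposing H3K4 demethylases had 0 of 5 called by edgeR, with 1 at an unadjusted p under 0.05 and 0 called by DESeq2. Kdm1a (LSD1), the flavin-dependent demethylase of the CoREST complex, had 127, 130 and 128 CPM in WT and 118, 138 and 128 CPM in KO libraries, a log2 fold change of -0.0039 (95% CI -0.20 to 0.19), and 0.05 without KO replicate 1. Kdm5c, encoded on the X chromosome, had -0.09 (95% CI -0.36 to 0.18), from -0.18 to -0.01 when single libraries were left out, and the others lay between -0.28 and 0.11, and between -0.31 and 0.28 without KO replicate 1. Kdm5d, a Y-linked gene, had 0 counts in all 6 libraries, all from females, and was not tested.

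Of the 6 H3K9 methyltransferases 0 were called by edgeR, with 1 at an unadjusted p under 0.05 and 0 called by DESeq2. That 1 was Ehmt1 (log2 fold change -0.22, FDR = 0.0839), with every KO library below every WT library, and it was called lower with scaling by library size alone. Setdb1, which silences endogenous retroviruses, had a log2 change of -0.09 (95% CI -0.27 to 0.10), and -0.05 without KO replicate 1. The exons of Setdb1 overlap those of Cers2 on the opposite strand. Suv39h1, which trimethylates H3K9 in heterochromatin, had -0.19 (95% CI -0.45 to 0.07), and Ehmt2 (G9a), which dimethylates H3K9, 0.03 (95% CI -0.17 to 0.22). Ehmt2 ranged from -0.02 to 0.07 when single libraries were left out. Cbx5, encoding HP1 alpha, which binds methylated H3K9, had 113, 118 and 113 CPM in WT and 133, 154 and 135 CPM in KO libraries. Every KO library was above every WT library (log2 fold change 0.30, SE 0.09), but the FDR was 0.0534, and 0.0445 without KO replicate 1 and 0.0261 by DESeq2. The other HP1 genes, Cbx1 and Cbx3, had -0.16 (FDR = 0.447) and -0.05 (FDR = 0.849), and -0.08 and -0.18 without KO replicate 2. Of the 12 members grouped here as demethylases of H3K9 and H3K36, 0 were called by edgeR. In this group 2 had an unadjusted p under 0.05 and 2 were called by DESeq2, with log2 fold changes from -0.44 for Kdm7a to 0.29 for Kdm8. DESeq2 called Kdm7a (FDR = 0.0487) and Phf8 (FDR = 0.0427) lower, and without KO replicate 2 Kdm7a (-0.63, FDR = 0.0266) and Phf2 (-0.28, FDR = 0.0494) were called lower. With all libraries Phf2 had -0.16 (FDR = 0.334), and without KO replicate 1 -0.09 (FDR = 0.601).

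The H3K36 methyltransferases had 0 of 3 called by edgeR, and 0 at an unadjusted p under 0.05 or by DESeq2. Setd2, which trimethylates H3K36 behind RNA polymerase II, had a log2 change of -0.16 (95% CI -0.51 to 0.18), Nsd1, which dimethylates H3K36, -0.14 (95% CI -0.49 to 0.20), and Ash1l 0.20 (95% CI -0.07 to 0.46). Without KO replicate 1 Setd2 had -0.08 and Nsd1 -0.01, and without KO replicate 2 they had -0.32 and -0.30. Setd8, the H4K20 monomethyltransferase now named Kmt5a, had -0.17 (95% CI -0.49 to 0.15), and -0.06 without KO replicate 2. Of the 4 other SET domain genes, the 4 Phf11 family genes and the 13 other tested PHF genes, 0 were called by edgeR or DESeq2 and 3 had an unadjusted p under 0.05, with log2 fold changes between -0.46 for Phf21b and 0.35 for Phf11d. Without KO replicate 2, Phf3, Phf12 and Phf13 were called lower (FDR = 0.0196, 0.0318 and 0.0459). The Phf11 genes are close paralogues that may share reads, so their values are uncertain, and Phf11d had a wide interval (95% CI -1.05 to 1.75). It had 1.23, 1.80 and 2.43 CPM in WT and 4.61, 0.908 and 1.37 CPM in KO libraries, and -0.67 without KO replicate 1. Phf24, at 0.111 CPM or less, was not tested.

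Matches to the miR-142 seeds were looked for in the longest annotated 3′ UTR of each gene. The 7-base motifs were ACACTAC or CACTACA for the 3p seed, AACACTA or ACACTAA for the 3p seed shifted by 1 base, and ACTTTAT or CTTTATA for the 5p seed, on the transcript strand. The 3p motifs overlap each other, so 1 locus can count for both. A 3p match of either kind was present in 24 of the 78 members (30.8%), against 22.6% of all tested genes with a 3′ UTR. The members have longer 3′ UTRs, with a median of 1535 bases against 1185. Of the 24 members with a 3p match, 2 were higher (Pcgf3 and Cbx7) and 0 lower, with a median log2 fold change of -0.07. Among all tested genes with such a match, 19.8% were higher and 5.57% lower, with a median of 0.12. Of the 54 members without a 3p match, 1 was higher (Pcgf5) and 3 lower, with a median of -0.10, against 9.55% higher and 7.63% lower and a median of -0.0069 among all tested genes without one. A 5p match was present in 26 members (33.3%), 2 higher and 2 lower (7.69% each), against 23.5% of all tested genes with a 3′ UTR, of which 13.8% were higher and 6.92% lower. The 2 higher were Pcgf3 and Cbx7, which also held a 3p match. Of the 16 members with a 5p match and no 3p match, 0 were higher and 2 lower. Among all such tested genes 10.2% were higher and 7.91% lower. A match is a description of these letters and not a measured binding site.

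Pcgf3 held the most separate 3p loci of the members, 6 in a 3′ UTR of 6572 bases, along with 3 matches of 8 bases to the 5p seed. Ash1l came next with 5 loci in 2293 bases and was not called. Cbx7 held 2. The contexts below are shown to set the called genes beside Ash1l, in capitals the match. On GRCm38 the Pcgf3 matches lie on the + strand at chr5:108500545-108500551, chr5:108502588-108502594 and chr5:108501237-108501244, those of Cbx7 on the - strand at chr15:79917041-79917047 and chr15:79916383-79916389, and those of Ash1l on the + strand at chr3:89077912-89077918 and chr3:89078859-89078866, all in exonic 3′ UTR sequence of GENCODE vM21.
Pcgf3, 3p, base 141 of the 3′ UTR: actcccaacaagACACTACcagcacgc
Pcgf3, shifted 3p, base 2184: ttttccagcatgAACACTAggatcagt
Pcgf3, 5p, base 833: tccagtggggagACTTTATAaagacact
Cbx7, 3p, base 1272: gatgacttctaaACACTACcctgcccc
Cbx7, shifted 3p, base 1930: ctccacccacatACACTAAccccatac
Ash1l, 3p, base 830: ttaccgactgaaACACTACtcttattt
Ash1l, shifted 3p, base 1777: ttaatagtgttaAACACTAAaattttaa

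The 8 members with 2 or more 3p loci had a median log2 fold change of 0.13 and ranged from -0.44 for Kdm7a to 0.66 for Pcgf3. Of these 8, 5 were above 0 and 3 below, and only Pcgf3 and Cbx7 were called. The 16 members with 1 locus had a median of -0.09, and the 54 with none -0.10. Medians by number of loci were not computed over all tested genes. The 6 members with an 8-base 3p match, Ash1l, Kdm7a, Kmt2a, Nsd1, Phf20l1 and Setd1b, were all not called, and 5 of them had a log2 fold change below 0. Pcgf5 and Phf1 held no match to any of the seeds, and Jarid2 and Kmt2d held 1 match each to the 5p seed.

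**Figure D4:**
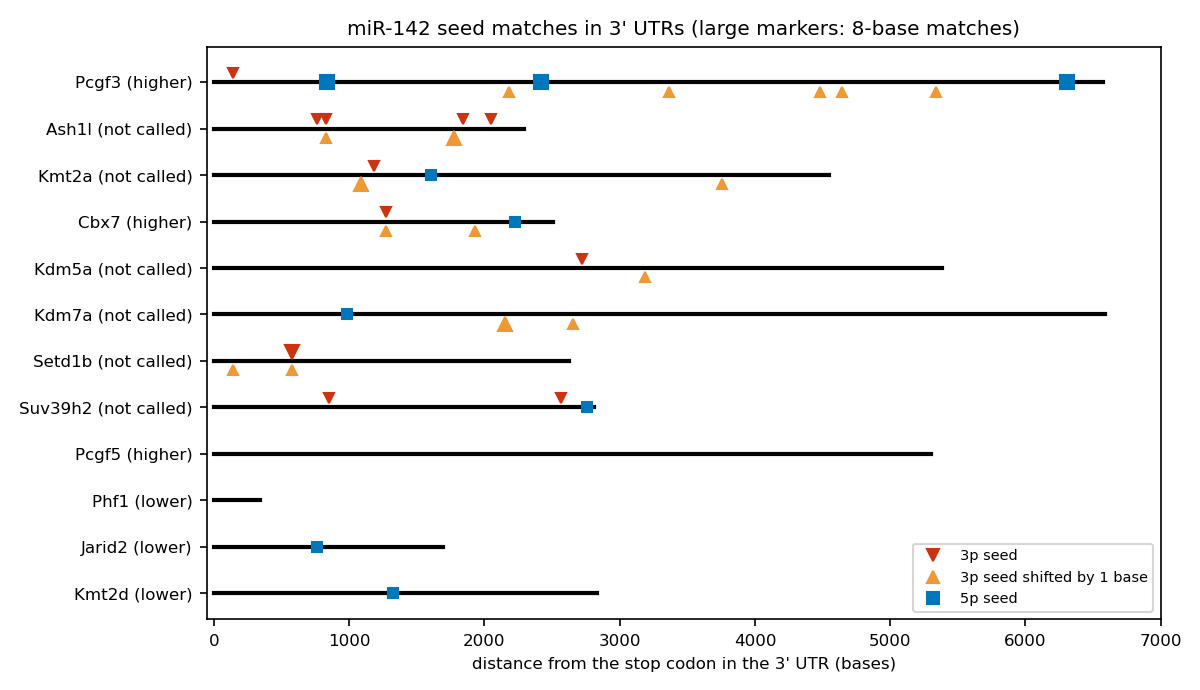
Positions of miR-142 seed matches, as distance from the stop codon in bases (horizontal axis), along the longest annotated 3′ UTR (black line) of the 8 members with 2 or more separate 3p loci and of the other called members. Pcgf3 carries 6 3p loci and 3 large 5p markers (8-base matches), and Pcgf5 and Phf1 carry none.

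Partner genes of the same complexes and enzyme classes outside the rule were counted in the same fit. Of 79 in the matrix, 72 were tested, 4 were higher (5.56%) and 6 lower (8.33%). Among all tested genes 11.6% were higher and 7.27% lower. The median log2 fold change of the partners was -0.11, against 0.02 for all tested genes. Smyd2, a lysine methyltransferase of histones and other proteins, had 22.7, 17.8 and 20.5 CPM in WT and 38.9, 48.4 and 44.9 CPM in KO libraries. All KO libraries were above all WT libraries (log2 fold change 1.12, SE 0.13, FDR = 0.00298), and it was called whichever library was left out. Prdm1, encoding the repressor Blimp-1 of effector Treg cells, had 43.0, 62.6 and 44.2 CPM in WT and 155, 80.1 and 92.6 CPM in KO libraries. KO replicate 1 was the highest, and the log2 fold change of 1.13 (SE 0.27, FDR = 0.0280) was 0.79 without it (FDR = 0.0182). Phc1, a polyhomeotic subunit of canonical PRC1, had 52.0, 54.2 and 53.4 CPM in WT and 68.2, 68.9 and 68.2 CPM in KO libraries (log2 fold change 0.36, SE 0.08, FDR = 0.0182). Mbd5, a subunit of the H2A deubiquitylase complex PR-DUB, had a log2 change of 0.74 (SE 0.20, FDR = 0.0421), and its exons overlap those of Orc4 on the opposite strand. Its call was lost with scaling by library size alone (FDR = 0.0531), with no filter on low counts (FDR = 0.0595) and with a block for the replicate number.

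Among the partners that were lower, Suv420h2, the H4K20 methyltransferase now named Kmt5c, had 47.2, 45.2 and 41.4 CPM in WT and 33.8, 30.1 and 32.3 CPM in KO libraries. The groups were well apart (log2 fold change -0.48, SE 0.10, FDR = 0.0182). Fam208a, the HUSH subunit Tasor, had -0.43 (SE 0.11, FDR = 0.0365), and Atf7ip, the partner of Setdb1, -0.40 (SE 0.10, FDR = 0.0379). The exons of Fam208a overlap those of Ccdc66 on the opposite strand, which was also lower (-0.53, FDR = 0.0350). L3mbtl2, of the variant complex PRC1.6, had -0.36 (SE 0.09, FDR = 0.0292), and Prdm9, known as a meiotic H3K4 methyltransferase, -0.81 (SE 0.20, FDR = 0.0298). The exons of L3mbtl2 overlap those of Chadl on the opposite strand, which was not called (-0.71, FDR = 0.244). Without KO replicate 1, Fam208a, Atf7ip and L3mbtl2 were no longer called, with FDRs between 0.0613 and 0.0727 and log2 fold changes of -0.37, -0.39 and -0.34, and without KO replicate 3 these 3, Prdm9 and Mbd5 were not called. L3mbtl2 was also not called where all 3 edgeR tests had to agree (FDR = 0.0759). Of the called partners named here only Smyd2 stayed called in the fits that left out a WT library. The Ring-type partners Bmi1 (Pcgf4) and Rnf2 (Ring1B) were not called, with log2 fold changes of 0.06 (FDR = 0.775) and -0.42 (FDR = 0.0934), nor was the H3K79 methyltransferase Dot1l (-0.25, FDR = 0.0608). Bmi1 ranged from -0.06 to 0.15 when single libraries were left out. Rnf2 and Dot1l were called lower by DESeq2 (FDR = 0.0435 and 0.0232) and with scaling by library size alone (FDR = 0.0442 and 0.0234), and Rnf2 without KO replicate 2 (-0.58, FDR = 0.0238). The groups overlapped for Rnf2. Its log2 fold change was -0.32 without KO replicate 1 (FDR = 0.159) and -0.33 without WT replicate 2 (FDR = 0.283). The exons of Rnf2 overlap those of Trmt1l on the opposite strand, which was not called (-0.43, FDR = 0.156).

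**Figure D5:**
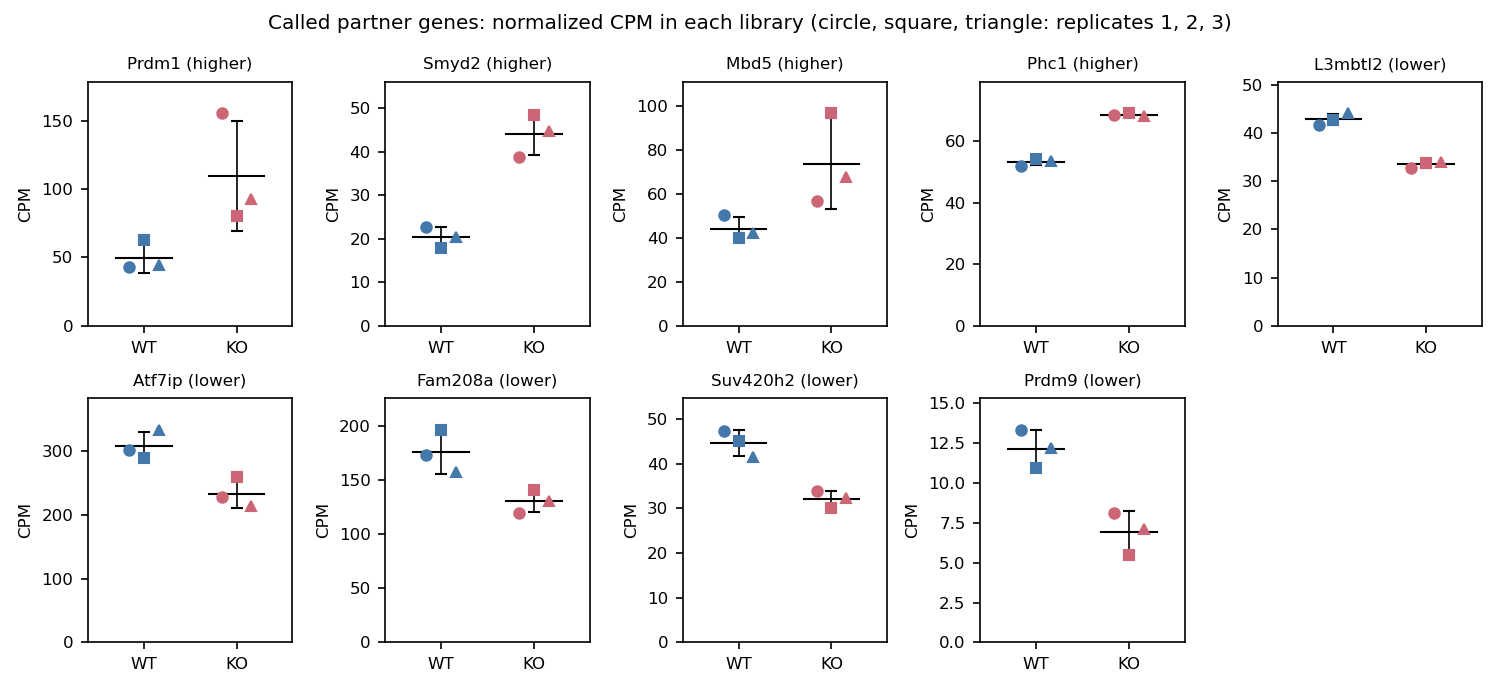
Normalized CPM (vertical axes, from 0) of 9 of the 10 called partner genes in each WT (blue) and KO (red) library; circle, square and triangle are replicates 1, 2 and 3, black lines the mean and error bars the SD (n = 3). In each panel all KO libraries lie on 1 side of the WT libraries, and KO replicate 1 of Prdm1 reaches 155 CPM.

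The members together took 1.38%, 1.42% and 1.46% of all counts in WT and 1.08%, 1.28% and 1.27% in KO libraries. Their summed level was 13143, 13986 and 14392 CPM in WT and 11202, 13461 and 12859 CPM in KO libraries, lowest in KO replicate 1 and with overlapping groups. Scaling by library size alone, which leaves out the TMM factors, called 2 members higher and 7 lower, and 1064 higher and 1201 lower among all tested genes in place of 1350 and 847, so the balance of higher to lower calls depends on the scaling.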

How the data were processed

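RNA-seq libraries of sorted splenic Treg cells (3 WT, 3 KO) were analyzed. Per the methods of the study, the authors aligned 51-base single-end reads to mm10 with HISAT and counted them with featureCounts without strand. They deposited raw counts. After a filter on CPM above 1 in at least 3 libraries, genes entered edgeR 4.0.16 (R 4.3.3), with TMM, the quasi-likelihood F test without robust estimation and Benjamini-Hochberg adjustment. Printed CPM values use TMM-scaled sizes of the tested genes. The common biological coefficient of variation was 0.212. Of 24421 symbols, 23376 matched GENCODE vM21 (GRCm38) directly, 651 by synonym and 394 not at all. Steps were tested on simulated data. Named were all called members, a fixed set from each class, up to 10 called partners and the 3 members highest per kb. Other members were named after their values were seen. Values of certain genes are left out. Members and lists were chosen with earlier results of these data known. Alternatives covered scaling, DESeq2 1.42.0, other edgeR tests, filters, thresholds, a replicate block, site types and leaving out each library.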

Additional observations from a re-analysis of the deposited data

How the results depend on the processing

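No named gene that was called changed direction under any alternative. RLE size factors, filterByExpr and the 3 edgeR tests together each left 3 members higher and 3 lower, the same genes as reported. DESeq2 called 5 members higher and 8 lower, and 17 partners. Library size alone called 7 members lower and 18 partners. An FDR under 0.01 left 1 member higher, 0 lower, 1 partner and 686 genes in all (490 higher, 196 lower). Leaving out single libraries, members called higher ranged from 1 to 5, members called lower from 0 to 9, partners from 1 to 13, and all genes from 733 to 2492 (497 to 1519 higher, 236 to 973 lower). The 3 lowest totals over all genes came without a WT library. In the fits that left out 1 library, log2 fold changes ran from 0.56 to 0.72 for Pcgf3 and 0.54 to 0.71 for Pcgf5. They ran from 0.49 to 0.76 for Cbx7, -0.51 to -0.40 for Phf1, -0.62 to -0.42 for Jarid2 and -0.72 to -0.52 for Kmt2d. With only the 3p motifs ACACTAC and AACACTA, leaving out CACTACA and ACACTAA, 11 members held a 3p match in place of 24. Of single named genes under the alternatives, 79 values lost their call, 10 gained one and 436 kept their side of the threshold. The causes were not tested.

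With a replicate block, 2 members were higher and 3 lower, 5 partners were called, and 1061 genes were higher and 545 lower. Among the genes named above, Cbx7 (0.63, FDR = 0.0699), Suv420h2 (-0.48, FDR = 0.0517), Phc1, L3mbtl2, Atf7ip and Mbd5 lost their calls. Rnf2 gained one (-0.43, FDR = 0.0380). Samples of the same number deviated together little, with correlations across genes of 0.08, -0.0056 and -0.20, and not every library correlated best with its own number. The main fit does not pair the samples by number. Whether mice of the same number shared a litter or batch was not tested.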
